A study of Arabidopsis thaliana with 18 samples.

Results

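Gene expression in seedlings exposed to white light (WL) for 360 min was compared with that of seedlings kept in the dark. The comparison takes the 3 libraries labelled dark and the 3 labelled 360 min, 6 of the 18 libraries of a light series, and all genes. Of the 34212 genes in the files, 16747 passed the filter on zeros and were tested. Both groups are whole 5-day-old wild-type Arabidopsis thaliana seedlings of the Col-0 accession that had grown etiolated, and the 360 min group was moved to WL before harvest. Each library is a pool of whole seedlings, so the organs cannot be separated. The labels and the methods of the study do not give the same light intensity or library preparation. No seedlings kept in the dark were collected at the later times, so the effect of light and that of 360 min of further growth cannot be told apart. The study asked how light changes vascular development through the peptide gene CLE44, and the 360 min group is the latest point of its series.

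In the dark a seedling elongates its hypocotyl, keeps its apical hook closed, lives on seed reserves and holds back its chloroplasts. Phytochromes and cryptochromes, the red and blue light receptors, end this state. They remove the PHYTOCHROME-INTERACTING FACTORs (PIFs), transcription factors that promote elongation and bind the G-box CACGTG and the related PBE motif CACATG, and they release HY5, a transcription factor that switches on light-induced genes and that the ubiquitin ligase COP1 degrades in the dark. Chloroplast assembly then needs nuclear genes for antenna proteins, photosystem subunits, the Calvin cycle and chlorophyll synthesis. TDIF is the peptide that the genes CLE41 and CLE44 encode. It acts through the receptor PXY, with PXL1 and PXL2 as its relatives, and keeps vascular stem cells from becoming xylem.

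The 6 libraries differed in what they could resolve. Their totals ran from 10729803 to 14239252 counts, but RNA from the 2 plastid 23S ribosomal RNA genes took 34.8%, 43.4% and 71.9% of the dark libraries 1 to 3 and 83.7%, 78.4% and 24.1% of the 360 min libraries 1 to 3. The remaining counts were 8979108, 7493829 and 3412808 in the dark and 2254754, 2315890 and 10802387 at 360 min. A single count is therefore worth 3.25 and 2.9 normalized counts in 360 min replicates 1 and 2 and 0.489 in replicate 3, where normalized counts are counts scaled to a common library size by edgeR's TMM factors. A count of 0 in 360 min replicate 1 allows up to 9.76 normalized counts (3 counts), a limit that covers counting error alone. Over the tested genes, 360 min replicate 3 correlated more closely with dark replicate 1 (Pearson r = 0.857 on the log2 scale) than with 360 min replicate 1 (r = 0.732) or replicate 2 (r = 0.817). The dark libraries correlated with each other at 0.858 to 0.918, and these values are descriptions across genes that follow depth as well as expression. Against the dark mean in log2 (5 normalized counts added), the 360 min libraries 1 to 3 had medians of -0.31, -0.04 and 0.01 over all genes tested. Over the genes called below, which were selected on these libraries, the medians were 2.69, 2.82 and 2.7 for those called higher and -2.91, -2.57 and -2.24 for those called lower. For some results named below that rest on 1 library, the value without it is given.

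**Figure D1:**
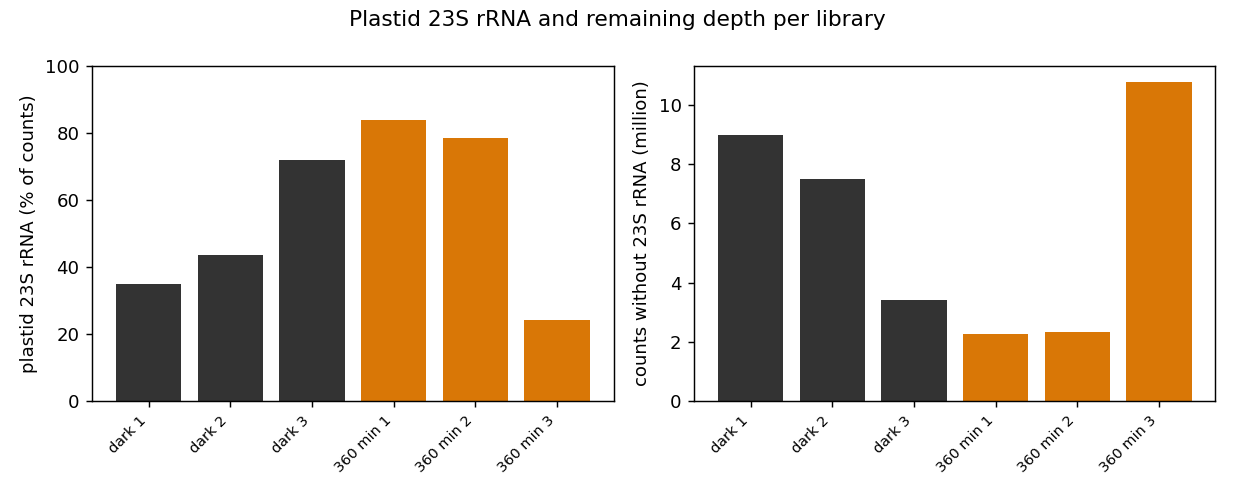
Percent of counts from the plastid 23S ribosomal RNA genes (left) and counts left without them, on a linear axis (right), for each of the 3 dark (dark grey) and 3 360 min libraries (orange). Replicates 1 and 2 at 360 min lost 83.7% and 78.4% of their counts to this RNA, and replicate 3 lost 24.1%.

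After 360 min of WL, 581 genes were higher than in the dark and 136 were lower (edgeR's quasi-likelihood test, Benjamini-Hochberg adjusted p below 0.01, here "called"). These are 3.47% and 0.812% of the 16747 genes tested, the shares beside which the list counts below stand. The changes were large, with a median log2 fold change of 2.83 (7.11-fold) among the genes called higher and -2.78 (6.87-fold) among those called lower, and 499 and 110 of them passed 4-fold. The median over all genes tested was -0.03. All 3 libraries at 360 min lay above all 3 dark libraries for 1761 genes (10.5%) and below them for 1886 genes (11.3%). Of the called genes, 573 of the 581 and all 136 showed such a separation. Calls spread over the 5 chromosomes, and 579 of the genes called higher and 132 of those called lower code for proteins. RNA was taken from whole seedlings, so fewer cells of a type and less RNA per cell cannot be told apart.

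The number of calls depended on the spread between libraries and on scaling. With 1 library left out, the counts were 331 higher and 75 lower without dark replicate 1, 396 and 84 without dark replicate 2, 376 and 101 without dark replicate 3, 536 and 78 without 360 min replicate 1, 438 and 69 without 360 min replicate 2, and 687 and 445 without 360 min replicate 3. Higher genes made up 81% of the calls here, 60.7% without 360 min replicate 3 and 63.1% (309 against 181) when libraries were scaled by their totals without 23S ribosomal RNA, a scaling that moved the median of all genes to -0.4. Scaled by totals that include this RNA, edgeR called 0 genes, with 975 at an unadjusted p below 0.05, and the median moved to -0.65. DESeq2 called 955 and 343.

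Most of the 10 genes with the largest rise had under 10 normalized counts on average in the dark, with HYH and RBCS1B above that. AT2G15020, an uncharacterized gene, had 1.2, 0.558 and 1.49 normalized counts in the dark libraries and 208, 157 and 358 at 360 min. The groups were far apart, with a log2 fold change of 7.78 ± 0.8 (SE) and an adjusted p of 9.4e-07. FBA5, an aldolase gene that shares 109 bases with AT4G26520 on the same strand, rose by 7.68 ± 1.24 from 3.01, 1.68 and 1.49 to 306, 348 and 727. The precursor locus of the microRNA miR163, MIR163, rose from 1.81, 2.23 and 0 to 290, 406 and 214 normalized counts (7.47 ± 0.99, adjusted p = 2.2e-05), and it was the single one of 15 miRNA loci tested that was called. CHS (AT5G13930, chalcone synthase, the entry enzyme of the flavonoid pathway, chromosome 5, 4488476 to 4490264) went from 3.01, 5.03 and 7.45 to 485, 641 and 1122. Its lowest light library stood far above its highest dark library (7.25 ± 0.58, adjusted p = 3.4e-08). ELIP2, HYH, RBCS1B, AT1G78995, AT4G12830 and AT5G56850 completed the 10 largest rises, between 6.69 and 7.62. The call of AT1G78995 was lost without dark replicate 2 or 3 (highest adjusted p = 0.016).

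The genes with the largest fall were expressed at moderate levels in the dark and at a few counts after light. AGP13, an arabinogalactan protein gene, had 45.1, 65.9 and 62.6 normalized counts in the dark and 0, 2.9 and 0.489 at 360 min. Its log2 fold change was -5.92 ± 1.35, and its call was lost without any 1 of the 6 libraries (highest adjusted p = 0.03). AT4G11610, annotated as a C2 calcium/lipid-binding protein, fell from 175, 262 and 198 to 3.25, 2.9 and 3.91, and PDC3, a pyruvate decarboxylase gene, fell from 98.1, 65.3 and 56.6 to 3.25, 0 and 0.978. The log2 fold changes were -5.86 ± 0.81 and -5.83 ± 1.16. AT3G18530, an ARM repeat protein gene that shares 455 bases with AT3G18535 on the same strand, was better covered, with 312, 1144 and 941 in the dark against 9.76, 14.5 and 18.6 (-5.7 ± 0.58, adjusted p = 8.8e-07). GH9B13, a glycosyl hydrolase of the family that holds the endoglucanases, fell by 5.13 on the log2 scale. The auxin response repressor IAA6, AT5G02540, AT5G02580, AT4G10160 and AT2G34020 completed the 10, between -4.95 and -5.38. Without one of the libraries the calls of PDC3 (highest adjusted p = 0.013) and AT4G10160 (0.018) were lost.

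**Figure D2:**
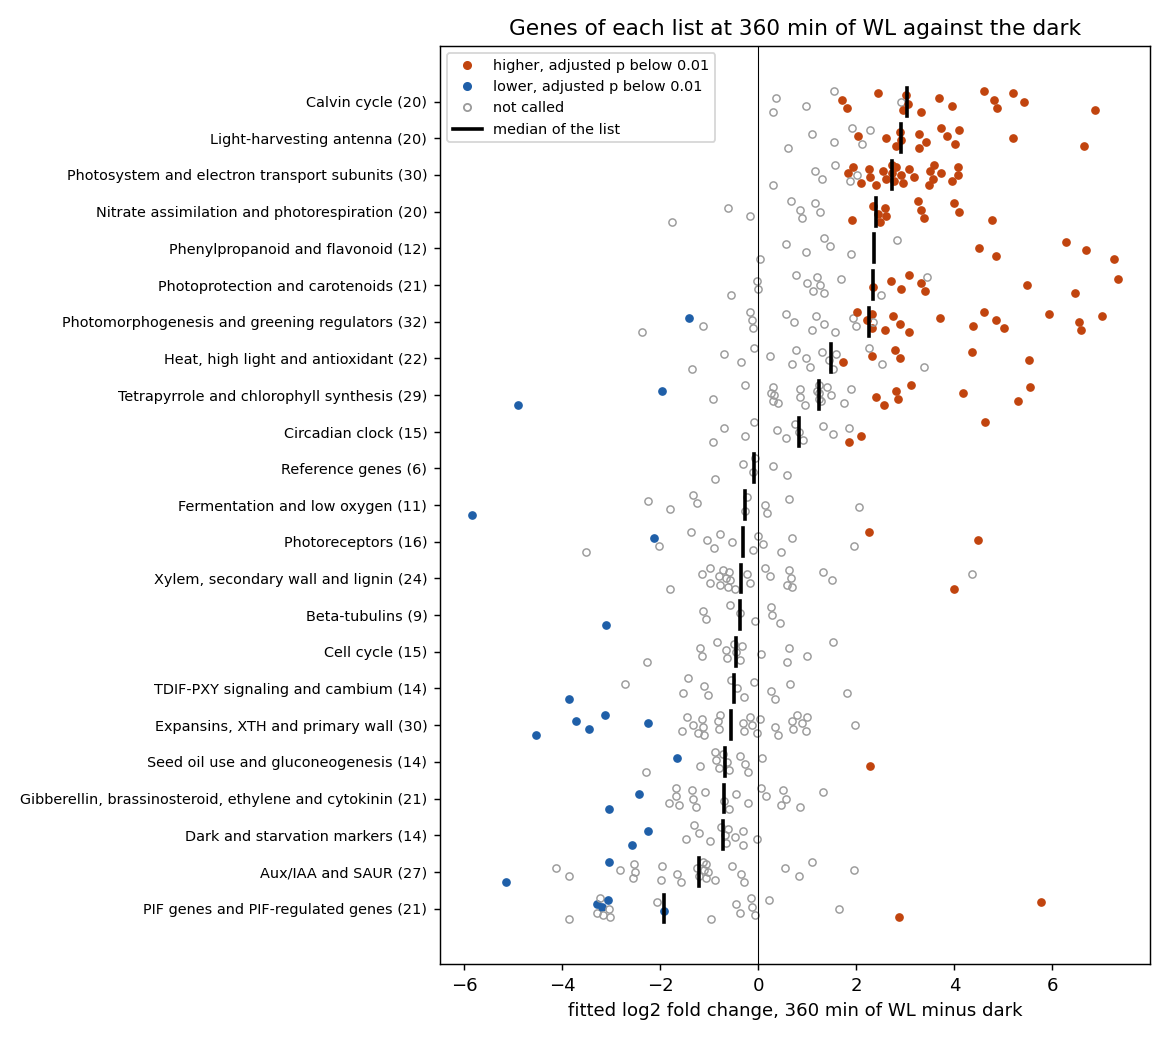
Fitted log2 fold change (360 min of WL minus dark) of each tested gene of 23 gene lists, with the number tested in brackets. Filled points were called at an adjusted p below 0.01 (red higher, blue lower), open points were not called, and the black bar is the median of the list. Lists of the photosynthetic apparatus lie at medians of 2.72 to 3.04, and the list of PIF genes and PIF-regulated genes lies at -1.92.

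Antenna genes, whose proteins bind chlorophyll and feed light energy to the photosystems, rose as a group. Of the 20 tested, 14 were called higher and 0 lower, and the median log2 fold change was 2.91. LHCB1.1 (AT1G29920), a major antenna gene of photosystem II, had 86.1, 82.1 and 77.5 normalized counts in the dark and 9501, 9519 and 5529 after light. Every light library was far above every dark one, a 99.7-fold difference (6.64 ± 0.48, adjusted p = 1.0e-08). Its close relative LHCB1.2 rose from 80.6, 121 and 86.5 to 3398, 3414 and 3744. Reads of LHCB1.1, LHCB1.2 and LHCB1.3 can be split between near-identical copies, so their separate values are uncertain. LHCB2.1 and LHCA1, the latter an antenna gene of photosystem I, rose by 4.1 ± 0.46 and 4.01 ± 0.44. The other 6 members were not called: LHCB1.4 (2.11, adjusted p = 0.068), LHCB2.3 (1.91, 0.069), LHCB4.1 (1.54, 0.026), LHCB4.2 (0.6, 0.5), LHCB4.3 (1.09, 0.51) and LHCA6 (2.28, 0.095).

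Nuclear genes for subunits of the photosystems and the electron transport chain moved in the same direction, with 24 of 30 called higher, 0 lower and a median of 2.72. FD2, the main leaf ferredoxin, had 420, 1049 and 470 normalized counts in the dark and 6562, 14742 and 11588 after light (4.08 ± 0.46, adjusted p = 3.0e-06). PSAK and PSAO, subunits of photosystem I, rose by 4.08 ± 0.45 and 3.73 ± 0.37. PSBS, which triggers the heat dissipation of excess light energy, gave an uneven response. Its dark libraries held 146, 272 and 146 normalized counts and the light libraries 290, 1533 and 6891, so replicate 1 lay just above the dark and replicate 3 far above. Its log2 fold change was 3.95 ± 0.85, and 2.27 without 360 min replicate 3. Its call was lost without any of the dark libraries or without 360 min replicate 3 (highest adjusted p = 0.038). Of paired isoforms, PSAE1 rose by 3.56 ± 0.59 while PSAE2 stood at 0.3 (adjusted p = 0.73), and PSBO2 rose by 3.5 ± 0.47 beside 2.61 ± 0.4 for PSBO1. These differences between isoforms were not tested.

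Of the 20 Calvin cycle genes, which code for carbon fixation, 15 were called higher and 0 lower, with a median of 3.04, the highest of the lists. The small subunit genes of Rubisco, the CO2-fixing enzyme, differed by copy. RBCS1B had 87.3, 84.3 and 136 normalized counts in the dark and 4212, 10548 and 20941 at 360 min (6.87 ± 0.62, 117-fold). RBCS1A started far higher, at 8928, 14139 and 10998, and reached 215346, 421972 and 197306 (4.61 ± 0.62). On a scale of normalized counts per kilobase of effective transcript length, RBCS1A had a mean of 257657 at 360 min, RBCS3B 66467, RBCS2B 30260 and RBCS1B 6976, so the copy with the largest fold change remained the lowest of the 4. The copies are similar in sequence, and reads can be split between them. RCA, which activates Rubisco, rose from 705, 787 and 639 to 7935, 12533 and 39019 (4.8 ± 0.54). CP12-2, a small regulator of the cycle, rose by 5.41 ± 0.6, whereas CP12-1 stood at 0.3 (adjusted p = 0.71) and was already at 3675, 2750 and 1419 in the dark. The chloroplast aldolase gene FBA1 rose by 5.2 ± 0.54. SBPASE, a key enzyme of the regeneration phase, had 42.3, 484 and 1914 at 360 min against 96.9 to 118 in the dark, so its groups overlapped (2.92 ± 0.85, adjusted p = 0.044). It was called without 360 min replicate 1 (3.48, adjusted p = 8.5e-04) and stood at 1.28 without replicate 3 (0.21).

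Chlorophyll synthesis genes were called in both directions. Of 29 tetrapyrrole genes tested, 8 were called higher and 2 lower, with a median of 1.23. The light-dependent step, from protochlorophyllide to chlorophyllide, is served by 3 enzymes that moved apart. PORA (AT5G54190) fell from 440, 782 and 386 normalized counts to 22.8, 29 and 8.31 (-4.9 ± 0.66, adjusted p = 2.9e-05). PORB fell from 695, 1179 and 884 to 179, 255 and 270 (-1.96 ± 0.42, adjusted p = 0.0035). PORC rose from 9.63, 11.7 and 4.47 to 596, 307 and 174 (5.29 ± 0.73, adjusted p = 3.3e-05). PORA is the form known for etiolated tissue and PORC for light-grown tissue. Per kilobase, PORB had a mean of 673 in the dark and 172 at 360 min, PORA 384 and 14.4, and PORC 5.93 and 247. The call of PORB was lost without dark replicate 2 or 3 or without 360 min replicate 1 or 2 (highest adjusted p = 0.023).

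Around that step, CHLH, the large subunit of the magnesium chelatase that commits protoporphyrin to chlorophyll, rose from 131, 231 and 236 to 3085, 3907 and 3707 (4.17 ± 0.39, adjusted p = 2.8e-07). Its activator GUN4, which overlaps AT3G59410 on the opposite strand over 946 bases, rose by 3.12 ± 0.51 and the chelatase subunit gene CHLI1 by 2.86 ± 0.45. The third chelatase subunit gene, CHLD, stood at 1.23 and just missed the threshold (adjusted p = 0.012). DVR, a vinyl reductase of the pathway, had 9.63, 0.558 and 4.47 normalized counts in the dark against 218, 342 and 146 (5.55 ± 0.88). HEMC, an early enzyme of the pathway, rose by 2.41 ± 0.42, but GSA1, GSA2, HEMB1, HEME1, HEME2 and HEMF1 were not called (0.41 to 1.75). CRD1 and FC2 were called higher, by 2.81 ± 0.39 and 2.56 ± 0.42. The enzyme genes CHLM, CAO, CHLP and CHLG were not called (0.85 to 1.9). HEMA1, the glutamyl-tRNA reductase gene that controls entry into the pathway, had 231, 223 and 298 in the dark and 215, 258 and 1231 at 360 min, so the high value came from replicate 3 (1.2, adjusted p = 0.21). Without that library its log2 fold change was -0.08.

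Photoprotection and carotenoid genes were called higher in 9 of 21 cases and lower in 0, with a median of 2.35. The early light-induced proteins ELIP1 and ELIP2, which protect greening plastids, led the list. ELIP2 rose from 2.41, 2.23 and 7.45 to 420, 814 and 497 normalized counts (7.34 ± 0.69), and ELIP1 from 10.8, 15.1 and 28.3 to 970, 1739 and 1872 (6.46 ± 0.46). The one-helix proteins OHP1 and OHP2 rose by 5.49 ± 0.53 and 3.41 ± 0.49. VDE and ZEP, the opposing enzymes of the xanthophyll cycle, were both higher, by 2.92 ± 0.38 and 2.71 ± 0.4. PSY, which makes the first carotenoid, rose by 2.35 ± 0.44. The other later enzyme genes, PDS, ZDS, Z-ISO, CRTISO, LCYB, LUT1, LUT2, LUT5, BCH1 and BCH2, were not called. They ranged from -0.55 (CRTISO) to 3.45 (LUT5, adjusted p = 0.023).

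The filter left 12 of 23 genes of the flavonoid list to test. Of these, 5 were called higher (CHS, CHI, CHIL, F3H and UGT78D2) and 0 lower. F3H, flavanone 3-hydroxylase, rose from 12.6, 5.03 and 43.2 to 1566, 1345 and 1443 normalized counts (6.28 ± 0.67). A gene on the opposite strand, AT3G51238, overlaps it over 1588 bases, and the counting did not use strand. CHIL, a chalcone isomerase-like gene, rose by 6.68 ± 0.74 and UGT78D2, a flavonol glucosyltransferase gene, by 4.85 ± 0.63. The general phenylpropanoid genes that feed the pathway were not called, with PAL1 at 1.34 (adjusted p = 0.093) and C4H at 1.47 (0.023). Of the genes the filter removed, the flavonol regulator MYB12 is given below. LDOX, of the anthocyanin branch, had raw counts of 0, 0 and 14 at 360 min, DFR had 0, 5 and 8, and both had 0 in every dark library. Other removed genes had counts in every light library. TT19 had 1, 0 and 0 in the dark and 22, 7 and 28 at 360 min, PAP1 0, 0 and 0 against 7, 2 and 21, and 4CL3 0, 1 and 0 against 8, 15 and 139. FLS1 had 3, 3 and 1 against 0, 38 and 218, and PAP2 1, 0 and 0 against 0, 0 and 0.

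**Figure D3:**
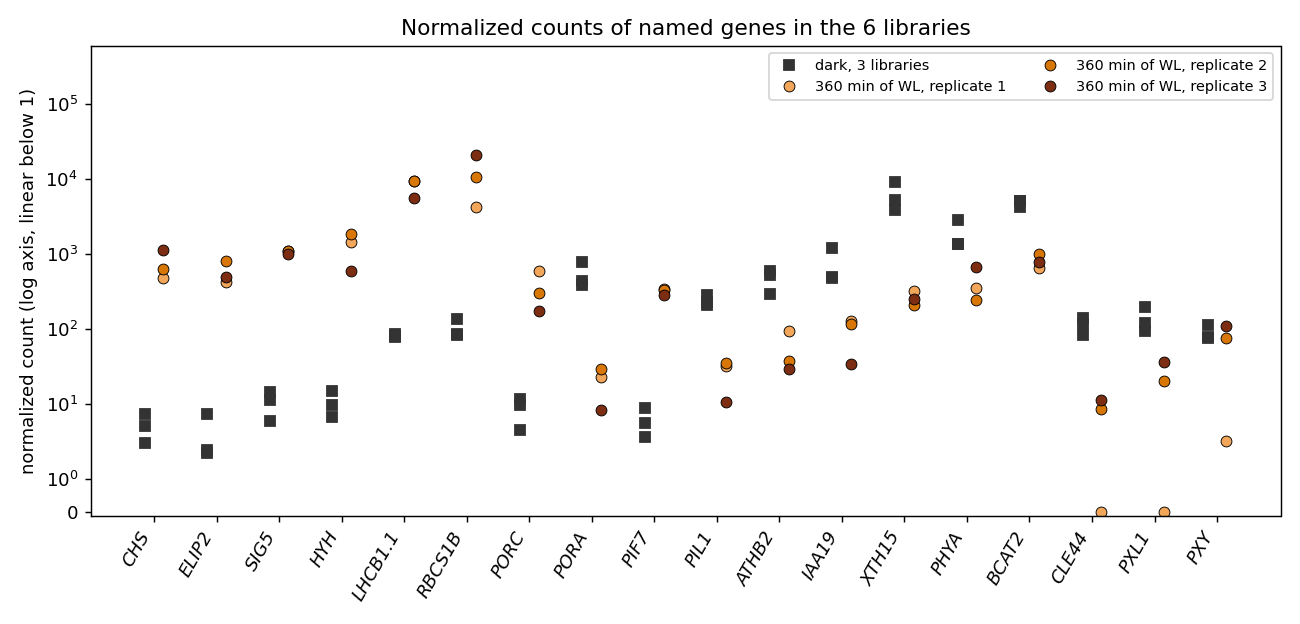
Normalized counts (log axis, linear below 1) of 18 named genes in the 3 dark libraries (squares) and the 3 libraries at 360 min of WL (circles, shaded by replicate). The groups are apart for all of them except PXY, and CLE44 and PXL1 are at 0 in 360 min replicate 1, where 0 allows up to 9.76 normalized counts.

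Regulators of photomorphogenesis and greening were called higher in 17 of 32 cases and lower in 1, with a median of 2.26. HYH, the partner of HY5, rose from 9.63, 6.7 and 14.9 to 1435, 1829 and 600 normalized counts (7 ± 0.64, adjusted p = 2.3e-07). HY5 itself had 155, 138 and 306 in the dark and 4768, 2185 and 830 after light (3.71 ± 0.6, adjusted p = 2.3e-04). SIG5, a plastid sigma factor that responds to blue light and stress, gave similar values in the 3 light libraries. It had 14.4, 11.2 and 5.96 in the dark and 1094, 1116 and 993 at 360 min (6.59 ± 0.48). SIG1, SIG2, SIG3 and SIG6 also rose, by 2.02 to 2.9, and SIG4 stood at 2 (adjusted p = 0.016). Sigma factors direct the plastid-encoded RNA polymerase to its promoters.

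Among the B-box zinc finger genes, the small proteins BBX30, BBX31 and BBX32 rose most. BBX30 had 1.81, 2.23 and 4.47 normalized counts in the dark and 534, 154 and 63.5 at 360 min (6.54 ± 0.8), and BBX32 3.61, 1.12 and 0 against 137, 142 and 76.3 (5.92 ± 0.98). BBX22, BBX24 and BBX25 were also called higher. BBX21, an activator that promotes HY5 expression, fell instead, from 2002, 3033 and 1932 to 986, 959 and 660 (-1.42 ± 0.32, adjusted p = 0.005). That call was lost without dark replicate 2 and without 360 min replicate 2 or 3 (highest adjusted p = 0.034). The repressors of light signaling were mixed. RUP1 and RUP2, which switch off the UV-B receptor UVR8, rose by 2.75 ± 0.39 and 4.61 ± 0.83, and SPA3, a COP1 partner, by 3.07 ± 0.52, while COP1 stood at 1.34 (adjusted p = 0.09). Of the greening regulators, GNL rose by 5.01 ± 0.93. GLK1 and GLK2, which activate antenna and chlorophyll genes, stood at -1.12 (adjusted p = 0.42) and 1.18 (0.08).

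Of 16 genes in the list of photoreceptors and related proteins, 2 were called higher and 1 lower. PHYA, the phytochrome that accumulates in the dark, fell from 2847, 1374 and 1382 normalized counts to 358, 241 and 673 (-2.13 ± 0.45, adjusted p = 0.0035), with each light library below each dark library. CRY3, a plastid and mitochondrial cryptochrome, rose from 22.3, 25.7 and 7.45 to 345, 472 and 485 (4.49 ± 0.48), and PHOT2, a phototropin, by 2.25 ± 0.36. PHOT2 overlaps AT5G58150 on the opposite strand over 2760 bases. FHY1 and FHL, which carry phytochrome A into the nucleus, stood at -2.02 (adjusted p = 0.052) and -3.52 (0.064). PHYB, CRY1 and UVR8 stood at 0.1, -0.01 and -0.77, with adjusted p-values of 0.94, 0.99 and 0.16. The call of PHYA was lost without dark replicate 1 and without 360 min replicate 1 or 2 (highest adjusted p = 0.034).

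PIF genes and PIF-regulated genes had the lowest median of the study lists, -1.92, with 4 of 21 called lower and 2 higher. All 3 light libraries lay below the dark for 11 of the 21, and for 11.3% of all genes tested. Of the PIF genes themselves, PIF7 and PIF8 were called. PIF7 rose from 3.61, 5.58 and 8.94 to 345, 328 and 282 normalized counts (5.77 ± 0.92, adjusted p = 2.1e-04), although AT5G61260 overlaps it on the opposite strand over 318 bases. PIF8 rose by 2.88 ± 0.66, a call lost without any dark library and without 360 min replicate 2 or 3 (highest adjusted p = 0.046). PIF1, PIF3, PIF4 and PIF5 stood between -0.14 and 0.21, with adjusted p-values of 0.78 or more. PIF4 spanned 22.8, 101 and 469 at 360 min, and without replicate 3 its log2 fold change was -1.83 (adjusted p = 0.096).

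The PIF-regulated genes that were called fell. PIL1 had 288, 228 and 207 normalized counts in the dark and 32.5, 34.8 and 10.8 after light (-3.29 ± 0.67). The homeodomain gene ATHB2, a shade marker, fell from 519, 599 and 291 to 94.4, 37.7 and 29.3 (-3.18 ± 0.63), and its relative HAT2 from 501, 272 and 429 to 39.1, 43.5 and 58.2 (-3.06 ± 0.4, adjusted p = 1.7e-05). ST2A, a sulfotransferase gene, fell by 1.92 on the log2 scale. HAT1, ATHB4, PAR1 and PAR2 had log2 fold changes of -3.02 to -3.85 at low counts and adjusted p-values of 0.017 to 0.064, and HFR1, which restrains PIFs, stood at -0.37 (0.76). Leaving out 1 library ended the calls of PIL1 (without dark replicate 1, adjusted p = 0.016), ATHB2 (without dark replicate 2 or 360 min replicate 2, highest 0.017) and ST2A (without any but dark replicate 2, highest 0.037).

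Auxin response genes followed with a median of -1.21. Of the 27 Aux/IAA and SAUR genes tested, 2 were called lower and 0 higher. In every library 13 lay below the dark, as did 11.3% of all genes tested. IAA6 had 123, 42.4 and 137 normalized counts in the dark and 6.51, 0 and 2.44 at 360 min (-5.15 ± 0.99, adjusted p = 0.0015). IAA19 fell from 1219, 497 and 478 to 127, 116 and 33.7 (-3.04 ± 0.5, adjusted p = 2.9e-04). IAA29, a known PIF target, stood at -2.81 (0.013) and SAUR23 at -4.12 (0.024). SAUR genes code for small proteins that promote acid growth, and several were lost to the filter: SAUR22 had raw counts of 228, 90 and 75 in the dark and 0, 0 and 3 at 360 min, and SAUR24 had 164, 82 and 13 against 0, 0 and 7.

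Cell wall genes of elongation were called lower in 5 of 30 cases and higher in 0. XTH15, a xyloglucan endotransglucosylase that remodels the wall, had 3881, 9233 and 5271 normalized counts in the dark and 325, 212 and 255 after light (-4.54 ± 0.48, adjusted p = 1.3e-06). Its relative XTH24 had 12263, 5096 and 6522 in the dark and 3867, 2272 and 2014 at 360 min, groups that did not overlap but missed the threshold (-1.55, adjusted p = 0.037). XTH19 fell by 3.72 on the log2 scale, XTH17 by 3.12, EXPA11 by 3.46 and EXPA4 by 2.24, where the EXPA genes code for expansins, which loosen walls. At 150 min XTH17 stood at -0.03 and XTH19 at -1.26, whereas XTH15 had already reached -5.72. XTH15 overlaps AT4G14120 on the opposite strand over 382 bases. The cellulose synthase genes of the primary wall, CESA1, CESA3 and CESA6, stood at -0.79, -0.3 and 0.04 and were not called. Of the 9 beta-tubulin genes 1 was called, TUB1, which overlaps AT1G75785 on the opposite strand over 639 bases and fell from 269, 181 and 67.1 to 0, 26.1 and 28.8 (-3.11 ± 0.65). That call was lost without dark replicate 1 or 2 or 360 min replicate 2 (highest adjusted p = 0.025).

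Of 21 tested genes of gibberellin, brassinosteroid, ethylene and cytokinin, 2 were called lower and 0 higher. GASA4, a gibberellin-regulated gene, fell from 14727, 3639 and 4910 to 710, 1261 and 866 normalized counts (-3.04 ± 0.53), and GAI, a DELLA repressor of gibberellin responses, fell by 2.44 on the log2 scale. The call of GAI was lost without any of the dark libraries or 360 min replicate 2 (highest adjusted p = 0.036). The gibberellin synthesis genes GA20ox1 and GA3ox1 were not tested. GA3ox1 had raw counts of 105, 160 and 45 in the dark and 0, 0 and 34 at 360 min, of which the 34 fell in the library with the most depth.

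In the clock list, 3 of 15 genes were called higher and 0 lower. ELF4, of the evening complex, rose from 107, 36.9 and 115 to 2646, 1638 and 2008 normalized counts (4.62 ± 0.62, adjusted p = 2.6e-05). COL2 and RVE1 rose by 2.09 ± 0.48 and 1.86 ± 0.44, and both overlap genes on the opposite strand. TOC1 stood at 1.52 (adjusted p = 0.011), while the morning genes CCA1 and LHY stood at 0.84 (0.23) and -0.7 (0.55). The groups were sampled 360 min apart, so clock phase and light cannot be told apart for these genes. COL2 lost its call without dark replicate 2 or 3 or 360 min replicate 2 (highest adjusted p = 0.046), and RVE1 without any but 360 min replicate 2 (0.053).

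Metabolic genes of the dark state were lower or not called, with 1 exception. Of 14 dark and starvation markers, 2 were called lower and 0 higher. All 14 had a log2 fold change below 0, while 8138 of the 16747 genes tested were above 0. BCAT2, a branched-chain aminotransferase, fell from 4230, 5124 and 5108 to 654, 1000 and 775 normalized counts (-2.57 ± 0.38, adjusted p = 8.4e-05). ASN1, the dark-induced asparagine synthetase, fell from 8203, 6951 and 3941 to 915, 713 and 2402 (-2.24 ± 0.48). In the seed oil list, ICL, the isocitrate lyase of the glyoxylate cycle, fell from 8423, 5191 and 4078 to 1907, 1281 and 2455 (-1.65 ± 0.37), and PMDH2, a peroxisomal malate dehydrogenase that also serves photorespiration, rose by 2.28 ± 0.43. PCK1, of gluconeogenesis, stood at -2.29 (adjusted p = 0.019) and MLS at -0.2 (0.85). ASN1 lost its call without dark replicate 1 or 2 or 360 min replicate 1 or 2 (highest adjusted p = 0.036), ICL without dark replicate 1 or 360 min replicate 1 or 2 (0.046) and PMDH2 without dark replicate 1 or 3 (0.014).

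Photorespiration, which recycles the product of Rubisco's oxygenation reaction, gave 12 of 20 genes called higher in a list shared with nitrogen assimilation, 0 lower and a median of 2.4. GDCP1, the P-protein of glycine decarboxylase, rose from 174, 339 and 343 to 6474, 9032 and 7893 normalized counts (4.77 ± 0.42, adjusted p = 1.2e-07). GOX1, a glycolate oxidase, rose by 4.09 ± 0.52, SHM1 by 4 ± 0.66 and PGLP1 by 3.37 ± 0.5. GLN2 and GLU1, which reassimilate ammonium in the plastid, rose by 2.58 ± 0.48 and 2.45 ± 0.43, but the nitrate reductase genes NIA1 and NIA2 stood at 0.67 (adjusted p = 0.39) and 0.85 (0.3). CAT3, a catalase abundant in the dark, stood at -1.76 with 66849, 19322 and 20480 against 8872, 10432 and 12230, groups that did not overlap but missed the threshold (0.023).

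Heat, high light and antioxidant genes were called higher in 6 of 22 cases and lower in 0. PRXQ, a plastid peroxiredoxin, rose from 30.7, 81 and 17.9 to 3206, 2017 and 938 normalized counts (5.53 ± 0.56). The chaperone gene HSP70-4 rose from 221, 205 and 303 to 1556, 1322 and 2111 (2.78 ± 0.35), and HSP17.6II, HSP90.1, HSP101 and DREB2A by 1.72 to 4.35. HSP17.6II lost its call without any dark library (highest adjusted p = 0.026) and HSP90.1 without dark replicate 1 or 2 or 360 min replicate 1 or 2 (0.028). Of 11 fermentation genes tested, 1 was called, PDC3, described above. PDC2, its relative, had 332, 191 and 249 at 360 min against 22.9 to 107 in the dark (2.06, adjusted p = 0.011) and was not called.

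The vascular genes the study is about gave a single call. Of 14 tested genes of TDIF-PXY signaling and cambium, 1 was called lower (7.14%, against 0.812% of all genes tested) and 0 higher. The median of the list was -0.5. CLE44 (AT4G13195, chromosome 4, 7661792 to 7663261, minus strand) had 118, 83.2 and 140 normalized counts in the dark and 0, 8.7 and 11.2 at 360 min. The highest light library was far below the lowest dark library, with a log2 fold change of -3.85 ± 0.8 (14.4-fold, adjusted p = 0.0028). It shares 492 bases of its locus with AT4G13190 on the same strand, so its reads can be split between both. Its log2 fold change was -3.25 to -4.61 in all alternatives, but the call was lost without dark replicate 3 (adjusted p = 0.01), without 360 min replicate 2 (0.014), in a fit of the 6 libraries alone (0.032), without 360 min replicate 1 and dark replicate 3 (0.026), and with totals that include ribosomal RNA (0.43). With replicate 3 as the lone library at 360 min, which is then assumed to vary like the other groups, the value was -3.3 (0.083).

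CLE41, the other TDIF gene, had 56.6, 82.1 and 34.3 in the dark and 0, 55.1 and 58.7 at 360 min, with overlapping groups (-0.56, adjusted p = 0.7). Without 360 min replicate 1 its log2 fold change was -0.02. PXL1 fell short of the threshold, with 121, 93.3 and 195 against 0, 20.3 and 36.2 (-2.71 ± 0.77, adjusted p = 0.03), and a gene on the opposite strand, AT1G08592, overlaps it over 3295 bases. DESeq2 called it (adjusted p = 0.0012), as did the fit of counts thinned to equal depth (0.0085). PXY, the main TDIF receptor, had 75.8, 112 and 77.5 in the dark and 3.25, 75.4 and 110 at 360 min (-0.44, adjusted p = 0.73). The low value came from replicate 1, and without that library the log2 fold change was 0.09. PXL2 was removed by the filter, with raw counts of 125, 83 and 23 in the dark and 0, 5 and 36 after light. None of the HD-ZIP III genes ATHB8, REV, PHB, PHV and CNA, which pattern vascular tissue, was called, and they ranged from -1.1 to 0.27.

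The 24 tested genes of xylem, secondary wall and lignin had a median of -0.35. Of them, 0 were called lower and 1 higher (4.17%, against 3.47% of all genes tested). That gene was CAD4, a cinnamyl alcohol dehydrogenase of lignin synthesis, with 330, 305 and 487 normalized counts in the dark and 7466, 7342 and 3010 after light (3.99 ± 0.52, adjusted p = 1.9e-05). F5H, also of lignin synthesis, had 4.81, 6.7 and 19.4 in the dark and 35.8, 151 and 412 at 360 min and missed the threshold (4.36, adjusted p = 0.013). It was called without 360 min replicate 1 (4.87, adjusted p = 0.0053) and stood at 3.23 without replicate 3 (0.068). The master regulators of xylem vessels were at the edge of detection. VND7 had raw counts of 2, 9 and 1 in the dark and 1, 0 and 1 at 360 min, VND6 had 3, 4 and 0 against 0, 0 and 12, and MYB46 had 15, 23 and 8 against 0, 0 and 12, so a change in them was not detectable at this depth. The secondary wall cellulose synthases CESA4, CESA7 and CESA8 stood at -0.62 to -0.77, with adjusted p-values of 0.61 to 0.75. Of 15 cell cycle genes tested, 0 were called by edgeR.

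Markers of single tissues were checked beside these lists. The summed normalized counts of the 9 seed and embryo genes were 71, 2800 and 1313 in the dark libraries 1 to 3 and 31.9 to 57.2 at 360 min, so dark replicates 2 and 3 carried more seed transcripts than dark replicate 1. EM1, an embryo protein gene, was called lower, with 46.9, 468 and 228 against 26, 2.9 and 32.7 (-3.49 ± 0.78). That call was lost without dark replicate 2 or 3 or 360 min replicate 1 or 2 (highest adjusted p = 0.053). Seed storage genes CRA1 and CRC stood at -6.82 (adjusted p = 0.14) and -5.34 (0.21), and SESA1 was at 0 in both groups. The part of seed transcripts in the lower calls was not tested. Root markers summed to 741 to 1308 in the dark and 1101 to 1530 at 360 min, epidermal and stomatal markers to 1152 to 2392 and 417 to 2159, and phloem markers to 282 to 353 and 324 to 472. None of the genes of these 3 lists was called, nor were STM or the 6 reference genes, whose median was -0.09.

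Genes silent in 1 group fell outside the test, because the study's filter drops any gene that has no count in at least 2 of the 3 libraries of a time point. Of all genes in the files, 6 had 0 counts in every dark library and at least 10 in each library at 360 min, and 5 showed the reverse. THI2.2, a thionin gene, had 35, 30 and 169 counts at 360 min. Its mean was at least 35.6-fold higher than the dark, taking 3 counts per library as the floor. This bound and those below set the mean against the floor and leave out the spread between libraries. MYB12, an activator of flavonol synthesis, had 16, 10 and 90 counts and was at least 15.7-fold higher. The uncharacterized gene AT3G44450, the lipid-transfer protein superfamily gene AT4G00165 and the dehydrogenase-like gene AT2G29300 were at least 20.8-fold, 21.1-fold and 19.6-fold higher. PRE5, an HLH gene of a family that promotes elongation, had 84, 64 and 19 counts in the dark and 0 in every library at 360 min, at least 5.75-fold lower. CYP96A5 and the noncoding AT2G40008 were at least 6.53-fold and 6.98-fold lower, and AT4G13918 and AT1G67790 at least 2.24-fold and 2.03-fold. The dark libraries of CYP96A5 differed widely, with 32, 17 and 68 counts and a normalized mean of 43.4 (SD 50.5). RLP55 was the remaining gene of the 11. With the filter described next, all of them could be tested. THI2.2, AT4G00165, AT3G44450, AT2G29300, PRE5 and CYP96A5 were then called. MYB12, AT2G40008, AT4G13918, AT1G67790 and RLP55 were not, so their bounds stand without a call.

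With a filter of at least 10 counts in 3 of the 6 libraries instead, 1036 of the genes that the study's filter removed could be tested, and 13 were called higher and 12 lower. These bear on hormone genes that are missing above. BR6OX1, of brassinosteroid synthesis, had 53, 43 and 23 raw counts in the dark and 0, 0 and 4 at 360 min (-4.5 ± 0.9, adjusted p = 0.0019), and SAUR22 and SAUR24 gave -6.58 ± 1.37 and -4.75 ± 1.11. The growth regulator GRF7 had 112, 87 and 89 against 0, 0 and 1. Among those higher, the glucosyltransferase gene DOGT1 had 2, 0 and 0 in the dark and 22, 125 and 450 after light, and NDA1, an alternative NAD(P)H dehydrogenase gene, had 1, 3 and 0 against 84, 32 and 164. These genes were chosen after their values were seen.

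The 360 min values were set beside the earlier times of the series. Each time was compared with the same dark libraries, so the comparisons are not independent. The 581 genes called higher had medians of -0.05, 0.37, 1.41, 2.41 and 2.83 at 15, 30, 60, 150 and 360 min, and the 136 called lower had -0.25, -0.57, -0.96, -1.9 and -2.78. The genes were selected at 360 min, which favours that time. Antenna, photosystem and Calvin cycle genes were below their dark level at 15 min (medians of -0.6, -0.52 and -0.41), near it at 30 min, and climbed to 150 and 360 min. Regulators were earlier, with a median of 1.98 at 60 min against 2.26 at 360 min. BBX30 and BBX32 had passed their highest value by then, with 7.25 and 7.17 at 60 min and 6.54 and 5.92 at 360 min. The clock list peaked at 60 min with 1.85 and stood at 0.84 at 360 min. Dark and starvation markers were at -1.54 at 150 min and at -0.72 at 360 min, and PIF genes and PIF-regulated genes at -0.89 and -1.92. CLE44 had values of 0.36, -0.8, -0.87 and -1.93 before -3.85 at 360 min. These differences between times were not tested.

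**Figure D4:**
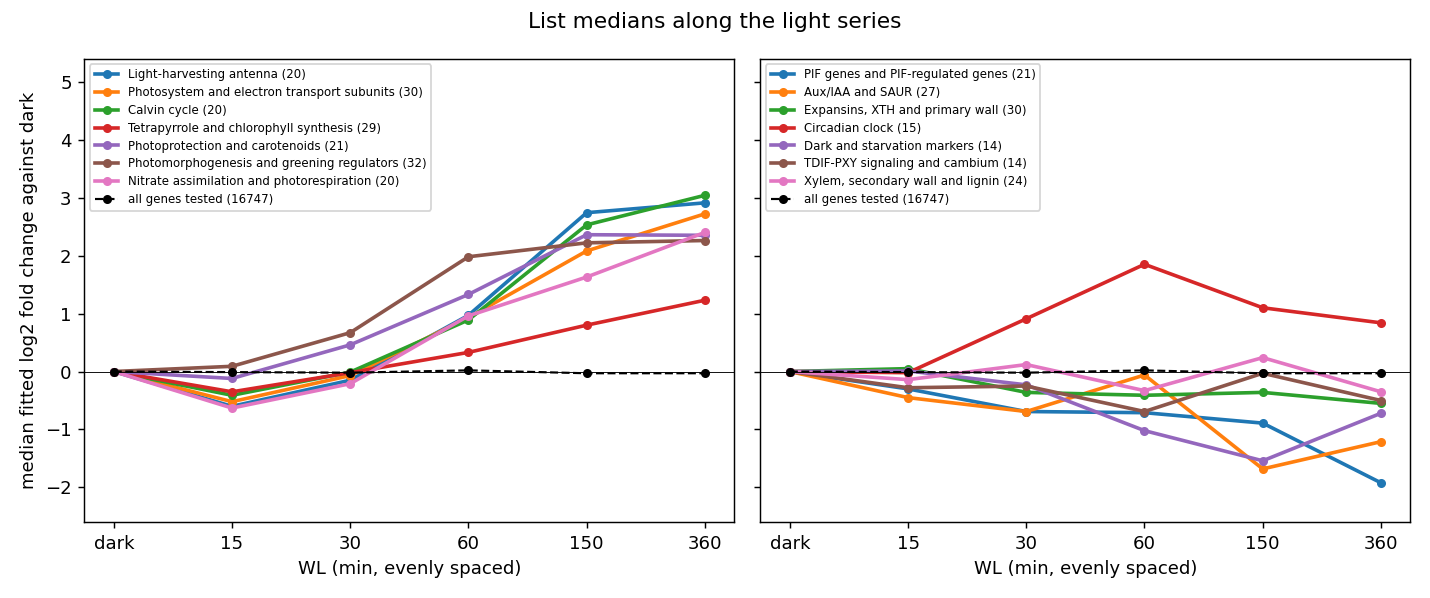
Median fitted log2 fold change against the dark of 14 gene lists at 15, 30, 60, 150 and 360 min of WL (evenly spaced), with the number of genes in brackets and all 16747 genes tested as a dashed line. Lists of the photosynthetic apparatus reach 2.72 to 3.04 at 360 min, and the clock list is highest at 60 min, 1.85.

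The 250 bases before the annotated start of each gene were searched on both strands for the G-box CACGTG, the PBE CACATG and the I-box GATAAG, a light-response motif, in the TAIR10.1 assembly with the RefSeq annotation. The G-box was present before 64 of 579 genes called higher (11.1%), 11 of 132 called lower (8.33%), 7.61% of the 16288 protein-coding genes tested and 6.49% of all 27443. The PBE was present before 26 of the 132 genes called lower (19.7%), 10.9% of those called higher and 11.1% of the genes tested, as of all. The I-box was present before 14.7% of those called higher, 12.9% of those called lower, 12.7% of the genes tested and 12.3% of all. These shares are descriptions without a test. A match is a stretch of letters and not a binding site. Windows of 3 genes called higher and 3 called lower, each with a G-box or PBE, are shown as examples. Every match to the motifs is in capitals, and the strand of the gene is read 5′ to 3′. The choice does not show that a motif goes with a direction. Among the other named genes, FBA5, SIG5, F3H and LHCA1 rose and held a PBE, and ASN1 fell and held a G-box. AT3G18530, EXPA11 and XTH17 also held a PBE and fell further than HAT2 and IAA19. The windows are chr3:8085670-8085919 on the minus strand for ELIP1, chr5:1563036-1563285 on the plus strand for CHIL, chr4:8708591-8708840 on the plus strand for BBX30, chr1:19673653-19673902 on the minus strand for IAA6, chr3:5263751-5264000 on the plus strand for IAA19 and chr5:19218008-19218257 on the minus strand for HAT2.
ELIP1: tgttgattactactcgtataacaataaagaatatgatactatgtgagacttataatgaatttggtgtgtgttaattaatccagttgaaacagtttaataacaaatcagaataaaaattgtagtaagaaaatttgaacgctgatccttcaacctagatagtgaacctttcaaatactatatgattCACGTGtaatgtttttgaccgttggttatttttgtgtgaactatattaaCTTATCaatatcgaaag
CHIL: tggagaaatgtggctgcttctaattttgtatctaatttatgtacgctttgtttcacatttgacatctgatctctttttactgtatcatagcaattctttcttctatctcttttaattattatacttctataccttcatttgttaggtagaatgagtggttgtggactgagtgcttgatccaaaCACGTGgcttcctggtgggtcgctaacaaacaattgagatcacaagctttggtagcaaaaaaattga
BBX30: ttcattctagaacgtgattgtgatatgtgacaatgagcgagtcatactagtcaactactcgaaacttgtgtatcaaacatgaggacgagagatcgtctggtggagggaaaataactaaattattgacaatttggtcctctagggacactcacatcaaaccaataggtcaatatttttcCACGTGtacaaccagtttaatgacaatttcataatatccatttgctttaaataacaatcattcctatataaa
IAA6: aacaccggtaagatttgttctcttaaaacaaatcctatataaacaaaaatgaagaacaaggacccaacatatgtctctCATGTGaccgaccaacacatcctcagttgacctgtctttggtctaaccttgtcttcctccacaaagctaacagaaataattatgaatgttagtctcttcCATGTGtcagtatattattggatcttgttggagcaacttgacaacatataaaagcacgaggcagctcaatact
IAA19: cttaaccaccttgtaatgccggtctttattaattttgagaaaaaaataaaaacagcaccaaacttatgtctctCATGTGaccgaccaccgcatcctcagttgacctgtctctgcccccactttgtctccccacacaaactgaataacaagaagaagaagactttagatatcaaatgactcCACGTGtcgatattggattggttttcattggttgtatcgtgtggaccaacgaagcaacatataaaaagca
HAT2: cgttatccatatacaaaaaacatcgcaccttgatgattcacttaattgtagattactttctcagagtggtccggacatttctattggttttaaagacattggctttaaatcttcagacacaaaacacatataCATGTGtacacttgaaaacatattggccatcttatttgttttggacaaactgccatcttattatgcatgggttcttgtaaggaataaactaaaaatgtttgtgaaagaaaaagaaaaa
In ELIP1, CHIL and BBX30 the G-box starts 66, 67 and 72 bases before the annotated start of the gene, and ELIP1 also holds an I-box, read on the opposite strand, at 17 bases. IAA6 holds a PBE at 172 and another at 73 bases, IAA19 a PBE at 177 and a G-box at 70 bases, and HAT2 a PBE at 118 bases, each PBE read on the opposite strand as CATGTG. The windows of IAA6 and IAA19, on chromosomes 1 and 3, share a run of 23 bases, tatgtctctCATGTGaccgacca, which contains the upstream PBE of both. The remaining letters of the windows hold no further match to these motifs, which says nothing about other sites or other regions of these genes.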

How the data were processed

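RNA was sequenced from 3 dark libraries and 3 libraries at each of 5 times of WL, and 18 libraries in 6 groups entered one fit. The authors used kallisto and the transcript set AtRTD2-QUASI to assign reads, and the deposited files hold estimated counts and TPM values for 82190 transcripts per library. From these, length-scaled gene counts were computed (TPM times mean effective length, scaled to the library total) then rounded. Following the study, a gene was dropped if at least 2 of the 3 libraries of a time point had no count for it. The 16747 genes left were tested with edgeR 4.0.16 (limma 3.58.1, R 4.3.3; TMM factors, robust quasi-likelihood test, no block) at a Benjamini-Hochberg adjusted p below 0.01. The biological coefficient of variation was 0.54. The study describes the replicates as biological, 3 per time point. Alternatives included DESeq2 1.42.0 and leaving out each library.

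The text names the 10 genes per direction with the largest called change that averaged 10 normalized counts or more and had separate groups, up to 4 called members per list and direction, members with a textbook role, 10 genes with 0 counts in 1 group, and the TDIF genes. The members and lists were chosen with earlier results of these data known. A deposited series table with 18 columns was not used, because its columns carry letters that the labels do not. Names and promoters came from RefSeq (TAIR10.1), whose coordinates are given. The kallisto options that the study lists include none for strand, so reads of genes that overlap on opposite strands cannot be told apart. Lists of plastid-encoded genes and cytosolic ribosomal proteins were not analysed here.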

Additional observations from a re-analysis of the deposited data

How the results depend on the processing

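Against 581 genes higher and 136 lower, the counts were 0 and 0 with library totals without factors, 270 and 31 with the 6 libraries alone, 955 and 343 with DESeq2, and 940 and 351 at a threshold of 0.05. Alternatives chosen after seeing the data gave 309 and 181 (totals without 23S ribosomal RNA), 370 and 64 (without dark replicate 3 and 360 min replicate 1), 376 and 26 (without 360 min replicates 1 and 2, the lone library being assumed to vary like the other groups) and 530 and 140 (counts thinned to equal depth). Leaving out 1 library gave 331 to 687 higher and 69 to 445 lower. The replicate block gave 465 and 97. Deviations of same-numbered libraries correlated at -0.2, -0.0134 and -0.379. With 3 libraries per group and unequal depth, these values cannot show whether the numbers pair the samples. The main fit used no block for them.

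Genes with separate groups numbered 1505 rather than 3647 with library totals without factors. Of the 82 named genes called, 0 were called with those totals, 54 without 360 min replicates 1 and 2, and 59 in each of the 6 fits that left out 1 library. The 143 called list members became 0 with those totals and 88 with the 6 libraries alone. The 11 genes at 0 in every library of 1 group became 15 to 260 with 1 library left out, the highest without 360 min replicate 3. CLE41 changed sign to 0.04 without 360 min replicates 1 and 2. PXY, at -0.44, ranged from -1.15 to 0.09 with 1 library left out, with the positive value without 360 min replicate 1, and stood at 0.01 without that library and dark replicate 3, and 0.33 without 360 min replicates 1 and 2. The cause was not tested. Depth limited genes under about 10 normalized counts, the limit that 0 counts set in 360 min replicate 1.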
